A study of Homo sapiens with 2 samples.

Results

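The D-type cyclins (CCND1, CCND2 and CCND3), the kinases that they activate (CDK4 and CDK6) and MYEOV, the gene next to CCND1, were followed in a human leukaemia cell line with and without an introduced PAX5. These 6 genes were found by Entrez number among the 25702 features of the count table. The set was selected on the counts of these same libraries, PAX5 against control, so the differences given for them are a description of the libraries and not a test. REH is an established line of B-cell precursor acute lymphoblastic leukaemia, labelled REH-R here. One culture carried a tet-regulated cassette of PAX5, an internal ribosome entry site and GFP (PAX5-IRES-GFP), and the control culture carried the same kind of cassette without PAX5 (IRES-GFP). Both were given 1 µg/mL doxycycline for 3 days and sorted for GFP-positive cells before RNA was taken, so the control cells had the drug, the GFP and the sort as well. The labels do not state whether a culture grew from 1 clone. There was 1 library in each group, without a replicate, and no p-value is given.

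D cyclins link growth signals to the cell cycle. A D cyclin binds CDK4 or CDK6, and the complex phosphorylates the retinoblastoma protein, which then releases E2F factors that switch on genes of DNA synthesis. INK4 proteins block CDK4 and CDK6 themselves, whereas CIP and KIP proteins mainly restrain CDK2. B-cell precursors are known to depend largely on CCND3, and CDK6 is a prominent kinase of lymphoid leukaemias. CCND1 is normally little expressed in lymphoid cells and is activated by translocation to the immunoglobulin heavy chain locus in mantle cell lymphoma and in myeloma. MYEOV lies close to it and was named for its overexpression in myeloma.

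Depth was 11944765 counts in the PAX5 library against 10997864 in the control library. CPM below is counts per 1000000 of the scaled library size, and levels of different genes are compared as CPM per kilobase (kb) of the deposited gene length, with raw counts beside them where stated. Values are given for the PAX5 library first and the control library second. Ratios divide the PAX5 level by the control level and carry an exact 95% interval for counting error alone. A feature was called higher or lower when the interval bound nearest to 0 on the log2 scale reached 2-fold and the summed count was at least 10. Of 13532 features with that count, 182 were called higher (1.34%) and 7 lower (0.0517%), while 18.7% had an interval above 0 and 16.8% one below 0. The labels were checked on PAX5, which had 8319 counts in the PAX5 library against 2660 in the control library, 2.91-fold (2.78 to 3.04). B-cell precursor markers were present in both libraries, with all 12 detected and summed levels of 9419 CPM (PAX5) and 8685 CPM (control). PAX5 itself is among the 12, with 699.7 CPM against 240.7 CPM, and VPREB1 had only 17 against 7 counts. Markers of T cells and erythroid cells summed to at most 2 counts in either library.

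Among the 6 genes, CCND1 and MYEOV were called higher in the PAX5 library and none was called lower. This contrast was in view when the genes were chosen, so nothing is read from their count beside the 1.34% of all features. CCND3, the D cyclin that made up nearly all D cyclin transcript in both libraries, was 1.16-fold higher, and CDK4 and CDK6 were slightly lower. CCND2 lay between, with a point ratio above 2-fold and an interval too wide for a call. Bulk RNA cannot tell more cells with a transcript from more transcript in each cell.

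**Figure D1:**
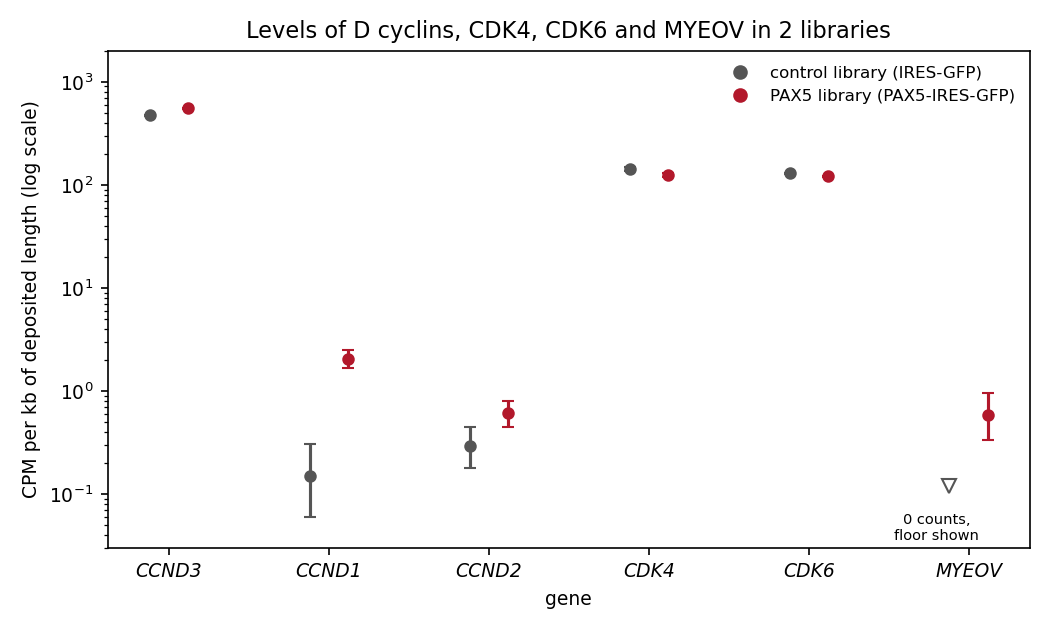
Level of each gene in CPM per kb of deposited length, on a log axis, in the control library (grey) and the PAX5 library (red). Bars are exact 95% counting intervals and the open triangle is the floor of 3 counts for MYEOV, which had 0 counts in the control library; CCND3 stands highest in both libraries, and the intervals of CCND1 in the 2 libraries are far apart.

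CCND1, which encodes cyclin D1 (Entrez 595), had 104 counts in the PAX5 library against 7 in the control library. These counts were 8.75 CPM (7.15 to 10.6) and 0.634 CPM (0.255 to 1.30). The intervals of the levels did not overlap, and the ratio was 13.8-fold (6.47 to 35.2). Of 1045 features whose summed count lay within 1.5-fold of that of CCND1, 39 (3.73%) were called higher. Here and for the other members, such counts of like features include the gene itself. The level in the PAX5 library was nevertheless low, at 2.04 CPM per kb, where CCND1 ranked 10522 of 25702 features. In the control library it was 0.148 CPM per kb.

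CCND2, which encodes cyclin D2 (Entrez 894), had 47 counts against 21. Its levels were 3.95 CPM (2.91 to 5.26) and 1.90 CPM (1.18 to 2.90), and their intervals touched. The ratio of 2.08-fold had an interval of 1.22 to 3.66, so CCND2 was not called. An antisense gene, CCND2-AS1, overlaps CCND2 in the RefSeq table, and without a stated strand setting its reads cannot be told from those of CCND2.

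CCND3, which encodes cyclin D3 (Entrez 896), had 15873 counts against 12660. The levels were 1335 CPM (1314 to 1356) and 1146 CPM (1126 to 1166), which did not overlap. The log2 ratio was 0.22 (0.19 to 0.25). Intervals this narrow lay off 0 for most abundant features: of 86 features with a summed count within 1.5-fold of that of CCND3, 26.7% had an interval above 0 and 61.6% one below. The median absolute log2 ratio of those 86 features was 0.19, close to the size of the CCND3 difference.

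The D cyclin pool was therefore CCND3 in both libraries. Per kb of length, CCND3 made up 99.5% of the summed D cyclin level in the PAX5 library against 99.9% in the control library. The share of CCND1 was 0.368% in the PAX5 library against 0.0312% in the control library. As a share of raw D cyclin counts, CCND1 had 0.649% (exact binomial interval 0.531 to 0.786) against 0.0552% (0.0222 to 0.114). CCND2 had 0.109% of the pool per kb in the PAX5 library against 0.0616% in the control library. Per kb, CCND3 exceeded CCND1 by 3201-fold in the control library and by 270.2-fold in the PAX5 library. The control value is imprecise, as it rests on 7 CCND1 counts (0.0594 to 0.304 CPM per kb). The summed D cyclin counts were 16024 and 12688, a ratio of 1.17-fold (1.15 to 1.20). Of the difference in the summed D cyclin level between the libraries, CCND3 contributed 78.1 CPM per kb, CCND1 1.89 and CCND2 0.315. The gene with the small ratio thus carried 97.2% of the difference per kb, and CCND1, with the large ratio, carried 2.36%. Without division by length these shares were 94.9% and 4.07%.

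**Figure D2:**
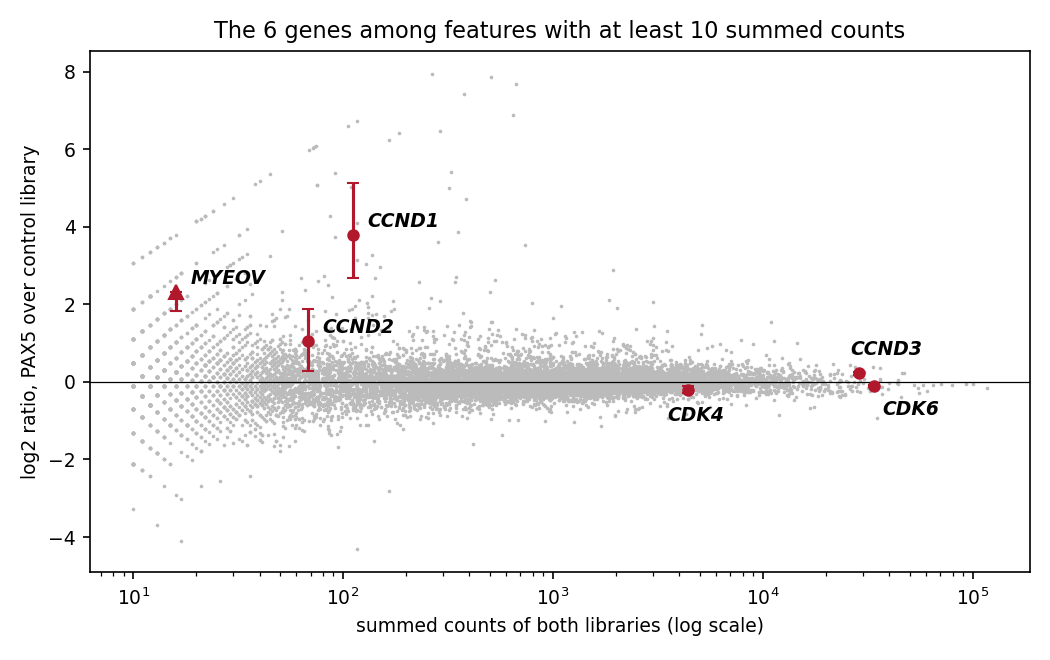
Log2 ratio of the PAX5 over the control library against the summed count of both libraries (log axis) for features with at least 10 counts and some counts in each library (grey), with the 6 genes in red and their 95% counting intervals. MYEOV is drawn as a triangle at its ratio over the floor of 3 counts. CCND1 lies above most grey points of like count, though some, such as MAF at 6.24, are higher. CCND3, CDK4 and CDK6 lie within the grey band.

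The kinases were abundant in both libraries. CDK4 (Entrez 1019) had 2120 counts against 2264, or 178.3 CPM (170.8 to 186.1) against 204.9 CPM (196.6 to 213.5), and its intervals did not overlap. The log2 ratio was -0.20 (-0.29 to -0.12). Of 1331 features of like count, 36.6% had an interval above 0 and 26.1% one below, and their median absolute log2 ratio was 0.12. CDK6 (Entrez 1021) had 16859 counts against 16848, or 1418 CPM (1397 to 1440) against 1525 CPM (1502 to 1548). Its log2 ratio was -0.11 (-0.14 to -0.07), and 60.0% of the 70 features of like count had an interval below 0. Neither kinase was called.

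Although CDK6 had 7.95 times the counts of CDK4 in the PAX5 library against 7.44 times in the control library, its deposited length was 11762 bases against 1443. Per kb the kinases stood side by side. In the PAX5 library CDK4 had 123.6 CPM per kb (118.4 to 128.9) and CDK6 120.6 (118.7 to 122.4), which did not differ beyond counting error. In the control library CDK4 had 142.0 CPM per kb (136.2 to 148.0) and CDK6 129.6 (127.7 to 131.6), with CDK4 slightly above. The D cyclin pool was 2.27 times the summed CDK4 and CDK6 level per kb in the PAX5 library against 1.74 times in the control library. The order of levels per kb was CCND3, CDK4, CDK6, CCND1, CCND2 and MYEOV in the PAX5 library, where the intervals of CCND2 and MYEOV overlapped. In the control library CCND2 (0.291 CPM per kb, 0.180 to 0.446) stood before CCND1 (0.148, 0.0594 to 0.304), with overlapping intervals.

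Ratios moved with gene length in these libraries, and CDK6 is among the longest genes. Over 20 equal groups of features by length, the median log2 ratio ran from -0.25 in the shortest group to 0.23 in the longest, to which CDK6 belonged. Relative to the median of its length group, CDK6 had a log2 ratio of -0.34 and CDK4 one of -0.10. CCND3 had 0.26 on that scale, CCND2 0.95 and CCND1 3.73, so each of these 5 genes kept its direction. An assumed biological coefficient of variation of 0.1 between cultures widened the intervals of CCND3 (-0.18 to 0.62), CDK4 (-0.61 to 0.21) and CDK6 (-0.51 to 0.30) across 0. At 0.2 the interval of CCND2 did so too (-0.05 to 2.20), while those of CCND1 (2.43 to 5.36) and MYEOV (lower bound 1.04) stayed beyond 2-fold.

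MYEOV (Entrez 26579) had 16 counts in the PAX5 library, 1.35 CPM (0.769 to 2.19), and 0 in the control library, where the floor of 3 counts is 0.272 CPM and the exact upper bound 0.334 CPM. It was at least 4.96-fold higher over that floor. The lower interval bound, which also covers the counting error of the 16 counts, was 3.58-fold. Of 1059 features with a like summed count, 32 (3.02%) were called higher. At 0.588 CPM per kb, MYEOV stood at the level of CCND2 (0.606) and below CCND1 in the PAX5 library.

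MYEOV and CCND1 are direct neighbours on chromosome 11 among the genes of the count table, so their neighbourhood was described as well. LTO1, on the other side of CCND1, had 61 counts against 66 and a log2 ratio of -0.22 (-0.75 to 0.30). FGF19, FGF4 and FGF3, which encode fibroblast growth factors and follow LTO1, had 0 counts in both libraries. The chloride channel gene ANO1, the fifth on that side, had 45 against 20 counts, for a log2 ratio of 1.06 (0.28 to 1.90), and was not called. On the side of MYEOV, TPCN2, an endolysosomal channel gene, had 128 against 130 counts and -0.13 (-0.49 to 0.24). Thus of the 4 measured genes among the nearest 5 on each side of CCND1, MYEOV alone was called, and ANO1 alone of the others had an interval above 0. Because MYEOV was chosen with this contrast known, nothing about the region is read from its call.

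The wider window of 10 genes on each side of CCND1 held 10 measured genes, of which 5 had an interval above 0 and none below, beside 18.7% and 16.8% of all features. This is a count of few genes, and nothing particular to the region is read from it. These 5 were MYEOV, ANO1, CPT1A, IGHMBP2 and PPFIA1, of which MYEOV was itself chosen with this contrast known. CPT1A, the enzyme that admits long-chain fatty acids to mitochondria, had 3851 counts against 1865, 0.94 on the log2 scale (0.86 to 1.02), just under the size rule. IGHMBP2 had a log2 ratio of 0.32 (0.07 to 0.57) and PPFIA1 of 0.19 (0.03 to 0.36), while FADD (0.02), MRPL21 (-0.01) and TESMIN (0.00) had intervals across 0. The actin-binding cortactin gene CTTN had 9 counts against 0 and a lower log2 bound of 0.88, under both the count minimum and the size rule. None of the neighbours of CCND2, CCND3, CDK4 or CDK6 was called, either within 5 or within 10 genes. Within 5 genes, CCND3 had 2 neighbours with an interval above 0 (USP49 and MED20) and 3 below (TOMM6, BYSL and TAF8). Near CDK6, RBM48 had a log2 ratio of 0.45 (0.11 to 0.79). TSPAN31, which overlaps CDK4, had 189 against 156 counts, for a log2 ratio of 0.17 (-0.14 to 0.49). Without a stated strand setting, reads of CDK4 and TSPAN31 in their overlap, and reads of CDK6 and its antisense gene CDK6-AS1, cannot be told apart. The same limit holds for LOC105375059, a long noncoding gene that overlaps CCND3, and for LOC112268009, which overlaps CDK6.

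**Figure D3:**
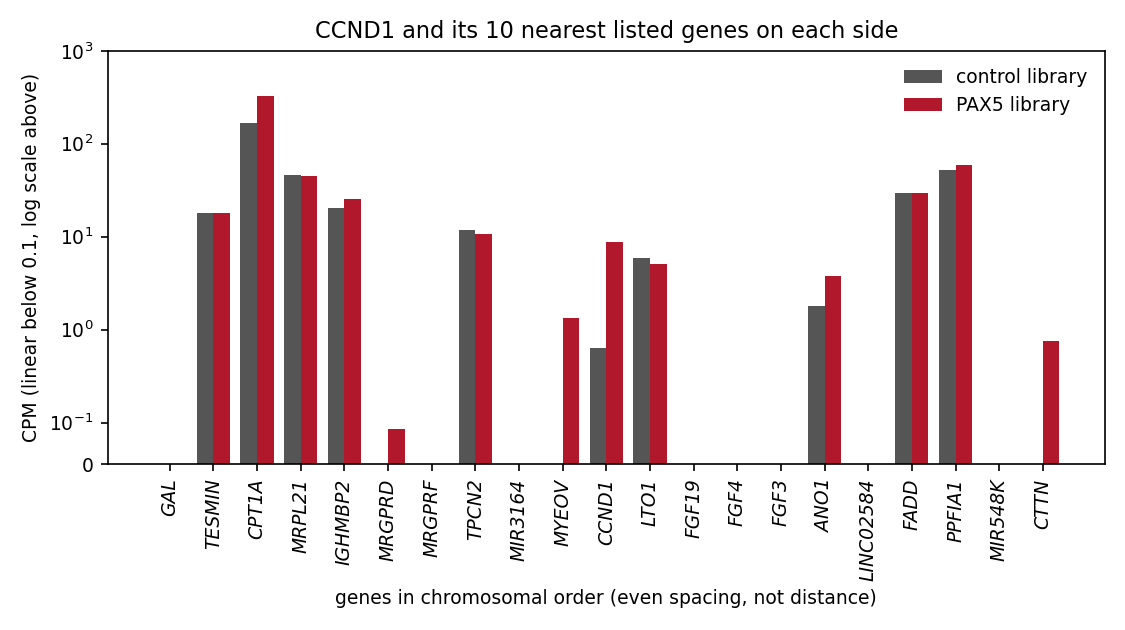
CPM of CCND1 and of the 10 nearest genes of the count table on each side, in chromosomal order with even spacing, in the control library (grey) and the PAX5 library (red). The axis is linear below 0.1 CPM and logarithmic above; CCND1 has bars of 0.634 (control) and 8.75 CPM (PAX5) and MYEOV of 0 and 1.35, LTO1 beside them has bars of like height, and absent bars are 0 counts.

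Inhibitors of CDK4 and CDK6 were described next. The INK4 genes CDKN2A and CDKN2B had 0 counts in both libraries. Their relatives CDKN2C, with 2537 against 2619 counts, and CDKN2D, with 600 against 616, had log2 ratios of -0.15 (-0.23 to -0.07) and -0.14 (-0.31 to 0.02). Of the 3 CIP and KIP genes, CDKN1B, encoding p27, had a log2 ratio of 0.32 (0.20 to 0.43) and CDKN1C 0.35 (0.13 to 0.59), and CDKN1A, encoding p21, had -0.04 (-0.16 to 0.08). No inhibitor gene was called.

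The substrates and the genes that act after them also had point ratios within 2-fold. RB1, the retinoblastoma gene, had 5143 against 4072 counts, for a log2 ratio of 0.23 (0.17 to 0.29), RBL1 had 0.17 (0.03 to 0.31) and RBL2 0.08 (-0.03 to 0.18). Of 10 E2F and DP genes, 3 had an interval above 0 and 1 below. At least 1000 summed counts were found for 8 of the 10. Among all features with that count, 28.7% had an interval above 0 and 25.04% one below. E2F2 (0.27), E2F7 (0.34) and E2F8 (0.33) were on the higher side and E2F1 (-0.27) on the lower. E2F7 and E2F8 encode repressor members of the family, whereas E2F1 and E2F2 encode activators. CCNE1 (0.03) and CCNE2 (-0.15), the E cyclins, had intervals across 0. CDK2, the kinase partner of the E cyclins, had -0.16 (-0.25 to -0.06), CCNA2 had -0.04, and CCNA1 had 0 counts in both libraries.

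The 14 S phase genes that E2F drives had a median log2 ratio of -0.02, where the median over all 13532 features was -0.01. Of these 14, RRM2 (0.10) and POLA1 (0.12) had intervals above 0, and TK1 (-0.10), CDT1 (-0.07) and PCNA (-0.06) had intervals below. All 14 had at least 1000 summed counts, where 28.7% of all features had an interval above 0 and 25.04% one below. The replication helicase genes MCM2 to MCM7 all had intervals across 0, with MCM6 at -0.05 (-0.11 to 0.00) and MCM3 at 0.02 (-0.03 to 0.07).

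**Figure D4:**
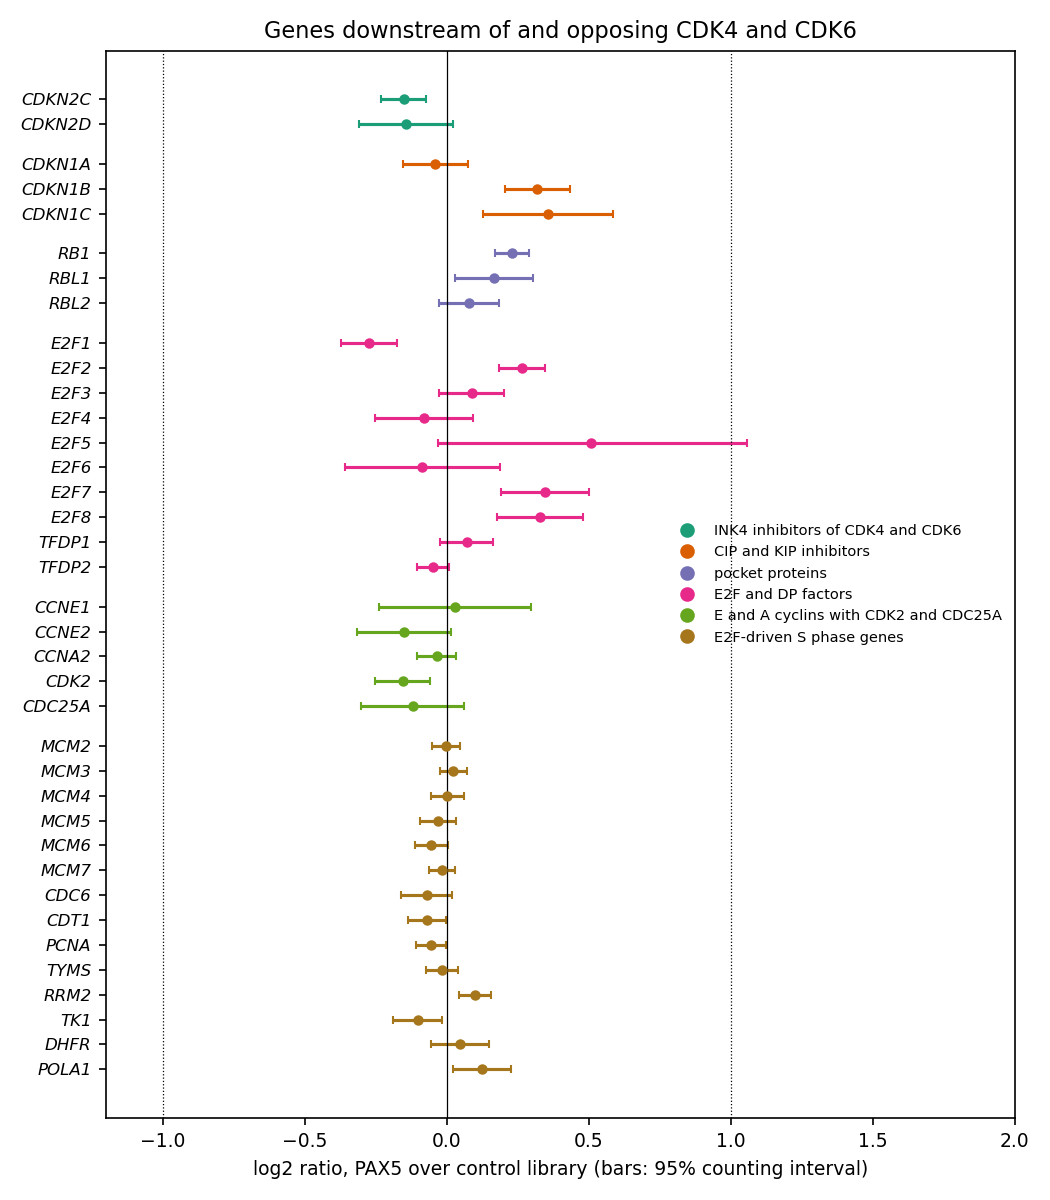
Log2 ratio of the PAX5 over the control library for measured INK4, CIP and KIP, pocket protein, E2F and DP, E and A cyclin and S phase genes, with 95% counting intervals; dotted lines mark 2-fold. All points lie between the dotted lines, and of these lists the S phase genes have the median closest to 0.

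No gene that assembles or turns over D cyclin complexes was called. The chaperones that fold CDK4 had intervals below 0: HSP90AA1 (-0.14), HSP90AB1 (-0.12) and CDC37 (-0.13). HSP90AB1 (27608 summed counts) and HSP90AA1 (32726) were near CCND3 and CDK6 in count, where 61.6% and 60.0% of features had such an interval. CDC37 had 3297, and 25.04% of features with at least 1000 had one. Nothing particular to chaperones is read from this. CDK7, CCNH and MNAT1, the subunits of the CDK-activating kinase, had intervals across 0. The median log2 ratio of these 6 genes was -0.065, and 0.047 after length centring. Of 11 measured genes of D cyclin turnover and phosphorylation, 5 had an interval above 0 and none below, beside 18.7% and 16.8% of all features, and 28.7% and 25.04% of those with at least 1000 summed counts, as 7 of the 11 had. They were FBXO31 (0.51), AMBRA1 (0.24), GSK3B (0.13), DYRK1A (0.10) and DYRK1B (0.89), which had only 48 against 24 counts. The median log2 ratio of the 11 genes was 0.088, and -0.027 after length centring, so no direction of this list is read from the 5. AMBRA1 and FBXO31 direct D cyclins to degradation, and GSK3B and the DYRK kinases phosphorylate them.

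Among transcription factors that are known to act on D cyclin genes, FOS was the only one called, with 22 against 144 counts, for a log2 ratio of -2.82 (-3.54 to -2.16). Its AP-1 partner JUN had 190 against 139 counts and 0.34 (0.02 to 0.67). FOXO1, which restrains D cyclin transcription, had 0.49 (0.42 to 0.55), LEF1, a Wnt effector, had 0.19 (0.15 to 0.23), and MYC had -0.38 (-0.45 to -0.30). SOX11, the transcription factor used beside CCND1 to diagnose mantle cell lymphoma, had 1310 against 861 counts and 0.50 (0.38 to 0.62). Of 10 measured members of this list, 6 had intervals above 0 and 3 below. Of these 10, 7 had at least 1000 summed counts, and among all features with that count 28.7% had an interval above 0 and 25.04% one below. The median log2 ratio of these factors was 0.17.

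Other genes that immunoglobulin translocations activate in myeloma were described beside CCND1 and MYEOV. MAF, a basic leucine zipper factor, had 163 counts against 2, 75.7-fold (20.6 to 630.7), and was called higher. MAFA had 165 against 72 counts and 1.09 on the log2 scale (0.68 to 1.51). NSD2, a histone methyltransferase gene, had 0.15 (0.09 to 0.20) and FGFR3, with 16 against 23 counts, had -0.63 (-1.65 to 0.35). In myeloma, MAF is known to drive CCND2 and the integrin gene ITGB7. ITGB7 had 13 against 31 counts here, -1.36 on the log2 scale (-2.42 to -0.38), on the other side of 0 from CCND2.

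Over all pathway lists, 69 genes other than the 6 were measured. MAF was called higher and FOS lower, beside 1.34% and 0.0517% of all features. An interval above 0 was found for 23 and one below for 13, beside 28.7% and 25.04% of features with at least 1000 summed counts, which 52 of the 69 had, and the median log2 ratio was 0.02. Markers of cells that commonly express CCND1 were near 0 counts where they define an epithelial cell: EPCAM, KRT8, KRT18, KRT19 and KRT5 had 0 counts in both libraries, and CDH1 had 0 against 1. Of 6 fibroblast markers, COL1A1 (115 against 93 counts) and PDGFRB (473 against 563) were present and were not called, while COL3A1 and LUM had 0 counts in both libraries. Plasma cell markers summed to 490.3 CPM in the PAX5 library against 394.4 CPM. None of the 6 plasma cell markers was called. SDC1 had 194 against 73 counts, PRDM1 17 against 4 and XBP1 4765 against 3438, each with an interval above 0. The intervals of MZB1, JCHAIN and TNFRSF17 lay across 0. Myeloid markers summed to 66.6 CPM against 132.2 CPM, and none was called. MPO had 554 against 1138 counts, CSF1R 14 against 41 and ITGAM 222 against 278, each with an interval below 0. LYZ, CD14 and ELANE had few or no counts. Over all features, 18.7% had an interval above 0 and 16.8% one below, and nothing is read from these few markers. The part of plasma cell and myeloid genes in the CCND1 and MYEOV differences was not tested.

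The genes whose level per kb in the 2 libraries lay nearest to that of CCND1, by Euclidean distance of log2(CPM per kb + 0.1), were PARVB (48 against 3 counts), OLFML2B (86 against 6) and KCNJ2 (125 against 12). For MYEOV the nearest were MIR1289-1, FAM240C and MIR1302-3, with 1, 4 and 1 counts in the PAX5 library against 0 in the control library. Levels from so few counts are not distinguishable from many others.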

How the data were processed

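RNA of 2 libraries, 1 of PAX5 and 1 of control cells, was analysed. The authors deposited raw read counts per gene with Entrez numbers and gene lengths, counted by featureCounts against hg19 (GRCh37), as the submitters' processing notes list. The sources used here name no aligner or strand setting, and do not say how multiply mapped reads were handled. The series table and the files of single libraries held the same 51404 values. Symbols and gene order came from a RefSeq table of GRCh38.p14 (23696 of 25702 features matched), whose coordinates are not printed.

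TMM factors (0.9954 and 1.0046, edgeR 4.0.16 in R 4.3.3) came from features with at least 10 summed counts. Ratio intervals are Clopper-Pearson (scipy 1.17.1) and levels have exact Poisson intervals. They cover counting error only, as 1 library in each group leaves variation between cultures unmeasured. Reads were treated as independent, which PCR copies are not. The calculation was tested on simulated data. A library at 0 was set to 3 counts for at-least folds, the plotted points of MYEOV, list medians and ratios under the alternatives. Intervals, and the calls made on them, used the 0.

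The 6 genes and the gene lists were chosen with earlier results of these data known. Genes named are the 6, list members past the rule or up to 4 with the farthest bounds, further list members named after their values were seen to complete a family, neighbours, and the 3 nearest patterns of CCND1 and MYEOV. Alternatives were other scalings (DESeq2 1.42.0 size factors among them), count minimums, fold thresholds, length centring and assumed variation between cultures. The values of 1 neighbour and 1 list member are not reported here.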

Additional observations from a re-analysis of the deposited data

How the results depend on the processing

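All 6 genes kept their direction under the 5 of 13 alternatives that rescale the ratios, while the other 8 leave a ratio as it is and bear on its interval or call alone. The log2 ratio ranged from 3.73 to 3.79 for CCND1, 0.95 to 1.06 for CCND2, 0.19 to 0.26 for CCND3, -0.23 to -0.10 for CDK4, -0.34 to -0.10 for CDK6 and 2.28 to 2.35 for MYEOV (over the floor). CCND1 passed the size rule in all of them. MYEOV (2.31) did not pass it with a count minimum of 50 or a bound at 4-fold, and CCND2 (1.06) passed it on the point ratio alone. Features called higher numbered 118 with an assumed coefficient of variation of 0.2, 113 with a minimum of 50 counts, 355 at 1.5-fold, 70 at 4-fold and 547 by the point ratio, where those called lower numbered 3, 4, 47, 2 and 234, and 4 after length centring. Apart from length centring, for which the cause was not tested, these settings are looser or stricter by construction. Of the list genes, 6 had intervals above 0 and 2 below with an assumed coefficient of variation of 0.1, and 2 and 2 with 0.2. With upper-quartile factors 21 lay below.

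In raw counts in place of counts per kb, the D cyclin shares were 0.649% (CCND1), 0.293% (CCND2) and 99.1% (CCND3) in the PAX5 library and 0.166% (CCND2) and 99.8% (CCND3) in the control library. The D cyclin pool was then 0.844 and 0.664 times the kinase pool, below it and not above, because CDK6 is long. Within 10 in place of 5 genes on each side, neighbours with an interval above 0 numbered 5 of 10 measured for CCND1, 6 of 11 for MYEOV and 1 of 12 for CDK4. Those below numbered 3 of 15 for CCND2 and 1 of 12 for CDK4. Over all features the shares were 18.7% above and 16.8% below. CCND1 and MYEOV, both chosen with this contrast known, count in each other's window, and the 2 windows share most genes. Nothing is read from these counts. No paired analysis was possible because each group had 1 library. At 100 summed counts the log2 interval reached 0.60 to each side, which limits CCND2 and MYEOV.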
